A study of Mus musculus with 12 samples.

Results

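The fasting response was described in livers injected with an adenovirus that expresses Cre recombinase (Adeno-Cre). These were 6 of the 12 mice of the series, 3 fasted for 24 h and 3 fed without limit, chosen by the injection and diet in their titles. All 12 were male C57Bl/6N mice aged 2 months with floxed alleles of Trp53 (Trp53tm1Brn), the gene of the transcription factor p53. The other 6, given virus at the same titre with green fluorescent protein in place of Cre (Adeno-GFP), were 3 fasted and 3 fed mice that keep p53, and their values are set beside those of Adeno-Cre livers only to show where the 2 responses differ. Virus was given through the tail vein and the diets began 3 days later. Cre cuts the floxed alleles only in cells the virus reaches, so a liver can hold cells that kept p53. Trp53 has no probe set that names it alone, so the arrays give no direct check of the deletion. The livers are therefore called by their injection here.

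In a fast, the liver turns from storing fuel to releasing it. Falling insulin and rising glucagon and glucocorticoid lower the synthesis of fatty acids and cholesterol, fatty acids from fat tissue are oxidised under the nuclear receptor PPARA, and carbon from amino acids goes into glucose while its nitrogen leaves as urea. p53 is known mainly as a stress-activated regulator of cell division and death, and it also acts on metabolism. The comparison asks what a day without food changes in livers in which p53 was targeted.

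Levels are log2 values of Affymetrix probe sets, and a change is the fasted minus the fed mean, so a change of 1 is a doubling. A gene rose or fell where limma's adjusted p in the fit over all 12 arrays and 22180 genes was under 0.05. In Adeno-Cre livers 592 genes passed (2.67% of those tested), 333 higher (1.50%) and 259 lower (1.17%). Of these, 31 rose (0.140%) and 49 fell (0.221%) by at least 2-fold. The 3 fasted and the 3 fed arrays did not overlap for 2509 genes that were higher (11.3%) and 2176 that were lower (9.81%). The list counts below are to be read beside these shares of all genes. Array medians lay between 6.26 and 6.33, and the correlation within groups was 0.991 to 0.994. Of 11 measured hepatocyte markers, which averaged 9.85 to 13.46, 0 passed limma's test and 2 had an unadjusted p under 0.05 (16.0% of all genes did). The count of 592 depends on single arrays. It was 207 without Adeno-Cre fasted replicate 1, 246 without fasted replicate 2, and 243, 330 and 283 when fed replicates 1, 2 and 3 of Adeno-Cre were left out. It was 713 without Adeno-Cre fasted replicate 3.

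Of the 28 process lists, the one of genes induced by interferon had the most members that fell. Interferons are cytokines that act through transcription factors such as STAT2 and IRF9 to switch on antiviral genes. Of 44 measured members of the interferon list, 24 fell and 0 rose, against 1.17% of all genes that fell. All 44 had a negative change, with a median of -0.90 where the median of all genes was 0.00, and 14 fell by at least 2-fold. In bulk liver RNA, fewer cells of a type and less RNA per cell cannot be told apart.

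Promoters of members that fell are shown because many hold the core of the interferon-stimulated response element. It was searched as GAAANNGAA on either strand in the 250 bases before each start, a motif chosen after the values were seen. Capitals mark every match, overlapping ones joined, and a match on the other strand is shown as its reverse complement. Sequences are from RefSeq, build GRCm38.p6. Ifit1 encodes a protein that binds foreign RNA (chr19:34640639-34640888, plus strand, 3 matches). Isg15 encodes a ubiquitin-like protein (chr4:156200819-156201068, minus strand, 3 matches). Gbp3 encodes a guanylate-binding GTPase (chr3:142559794-142560043, plus strand, 2 matches). Igtp (chr11:58199306-58199555, plus strand, 1 match) and Irgm1 (chr11:48871421-48871670, minus strand, 2 matches) encode immunity-related GTPases. Stat2 encodes a transcription factor of the pathway (chr10:128270248-128270497, plus strand, 1 match).
Ifit1: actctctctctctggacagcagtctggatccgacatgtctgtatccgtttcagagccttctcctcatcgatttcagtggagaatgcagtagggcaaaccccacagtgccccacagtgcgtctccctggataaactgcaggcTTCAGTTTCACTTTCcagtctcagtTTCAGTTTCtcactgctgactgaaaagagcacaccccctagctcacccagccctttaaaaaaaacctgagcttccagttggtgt
Isg15: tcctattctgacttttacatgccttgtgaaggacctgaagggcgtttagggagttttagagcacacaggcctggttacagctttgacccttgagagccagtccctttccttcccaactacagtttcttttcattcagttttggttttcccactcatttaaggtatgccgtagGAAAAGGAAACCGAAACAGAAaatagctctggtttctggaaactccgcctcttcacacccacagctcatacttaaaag
Gbp3: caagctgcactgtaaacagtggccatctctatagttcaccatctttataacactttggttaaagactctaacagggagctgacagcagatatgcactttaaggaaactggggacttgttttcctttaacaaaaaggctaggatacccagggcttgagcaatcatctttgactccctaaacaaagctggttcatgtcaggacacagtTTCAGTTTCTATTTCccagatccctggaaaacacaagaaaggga
Igtp: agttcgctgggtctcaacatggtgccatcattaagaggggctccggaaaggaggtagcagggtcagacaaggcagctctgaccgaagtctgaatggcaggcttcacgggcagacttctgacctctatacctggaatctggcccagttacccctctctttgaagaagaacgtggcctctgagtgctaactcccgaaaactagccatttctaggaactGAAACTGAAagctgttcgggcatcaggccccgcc
Irgm1: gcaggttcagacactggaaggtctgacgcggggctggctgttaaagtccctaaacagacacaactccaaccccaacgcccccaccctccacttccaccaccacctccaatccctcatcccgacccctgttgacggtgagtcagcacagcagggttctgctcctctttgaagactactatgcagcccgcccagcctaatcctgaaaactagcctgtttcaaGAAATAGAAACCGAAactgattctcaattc
Stat2: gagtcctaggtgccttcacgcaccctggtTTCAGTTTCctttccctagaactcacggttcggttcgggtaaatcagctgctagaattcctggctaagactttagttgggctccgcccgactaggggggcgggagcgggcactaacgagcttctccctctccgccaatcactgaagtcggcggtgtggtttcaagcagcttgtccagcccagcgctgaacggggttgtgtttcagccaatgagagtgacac

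Of the 17 members that fell and have a promoter in the table, 12 held the core: Ifit1, Isg15, Oas1g, Stat2, Cxcl9, Igtp, Irgm1, Irgm2, Gbp3, Gbp5, Gbp7 and Bst2. Over all 30 measured members with a promoter, 17 held it (56.7%), against 8.18% of the 27025 genes with promoters of the same length. The match is a description of letters in this window and shows no binding.

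Ifit1 had levels of 8.52, 8.21 and 7.86 in the fasted arrays and 10.96, 9.85 and 9.51 in the fed arrays, a change of -1.91 (SE 0.33, limma adjusted p = 0.0106) or 3.75-fold. The 3 fasted arrays lie below the 3 fed ones, and fed replicate 1 is the highest. Gbp10, a guanylate-binding GTPase, read 8.75, 8.89 and 8.65 after fasting and 11.42, 10.95 and 10.42 with food, a change of -2.17 (SE 0.24, adjusted p = 0.00113). It is the member with the largest change, and its groups do not overlap. Rtp4, an interferon-induced chaperone of receptors, read 9.25, 8.88 and 8.95 against 10.68, 10.31 and 10.22, a change of -1.38 (SE 0.18, adjusted p = 0.00327). The antiviral GTPase gene Mx2 read 7.57, 6.99 and 7.01 against 9.56, 8.40 and 8.41, a change of -1.60 (SE 0.27, adjusted p = 0.00927). In Mx2, as in Ifit1, fed replicate 1 stood over 1 log2 unit above the other fed arrays, while the fasted arrays were all lower.

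Igtp had levels of 10.55, 10.40 and 10.23 in fasted and 11.66, 11.34 and 11.26 in fed arrays (change -1.03, SE 0.17, adjusted p = 0.00852). Isg15 had 8.20, 7.69 and 7.23 against 10.13, 8.65 and 9.00 (change -1.56, SE 0.33, adjusted p = 0.0275). Both separate the diets, Isg15 with the wider spread. Parp14, an ADP-ribosyltransferase, fell by 1.29, Irgm2 by 0.93 and Bst2, which tethers virus particles to the cell, by 0.89. Falls were also seen in Oas1g (-1.40), a sensor of double-stranded RNA, in Cxcl9 (-1.08), a T cell chemokine, and in the factors Irf7 (-0.83) and Stat2 (-0.55). Gbp11, outside the list, fell by 1.49. Members that did not pass include Mx1 (-1.24, adjusted p = 0.0872), Usp18 (-0.94, adjusted p = 0.0739) and Irf1 (-0.03). Probe sets of close relatives, such as the Gbp, Oas and Irgm genes, can share hybridising RNA, so their values are not independent.

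Single arrays weigh on the count but not on the direction of the median. It was 15 of 44 without Adeno-Cre fasted replicate 1, 9 without fasted replicate 2, and 10 without Adeno-Cre fed replicate 1, where the median was -0.68. Ifit1, Gbp10, Mx2, Rtp4, Parp14, Igtp, Irgm2 and Bst2 kept their calls without each array in turn. Isg15 missed the threshold without Adeno-Cre fasted replicates 2 or 3 or fed replicates 1 or 3 (adjusted p 0.0571 to 0.0895), and Gbp11 without any Adeno-Cre array except fed replicate 2 (0.0656 to 0.0975).

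In Adeno-GFP livers 1 member of the list fell (Cxcl9, -0.95), 0 rose, and the median was -0.10, where 1.87% of all genes fell. Averaged over the 44 members, the level was 8.16 to 8.42 in Adeno-Cre fasted arrays and 8.94 to 9.56 in Adeno-Cre fed arrays. It was 7.80 to 8.20 in Adeno-GFP fasted and 8.0 to 8.30 in Adeno-GFP fed arrays. The Adeno-Cre fed arrays thus lie above all 9 others, and the fasted Adeno-Cre arrays overlap those of both Adeno-GFP groups. Ifit1 read 8.70, 8.01 and 8.81 in Adeno-GFP fasted and 7.86, 8.32 and 8.12 in Adeno-GFP fed arrays, a change of 0.41 (adjusted p = 0.59). The interaction, which tests whether the fasting change differs between injections, passed for 0 of 44 members. At an unadjusted p under 0.05, 33 of 44 differed (75.0%), against 7.56% of all genes, and the smallest adjusted p was that of Ifit1 (interaction -2.32, adjusted p = 0.404). The injections differ in viral cargo, Cre or green fluorescent protein, and in the p53 deletion that Cre is meant to bring. The parts of these in the level of fed Adeno-Cre livers cannot be told apart.

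Of the Kupffer cell, T and NK cell, B cell and neutrophil markers 0 passed limma's test. The change was negative in 14 of 16 Kupffer cell, 12 of 15 T and NK cell and 7 of 8 B cell markers. It was positive in 9 of 11 neutrophil markers. Of 16 markers of Kupffer cells, the resident macrophages of the liver, 6 had an unadjusted p under 0.05, where 16.0% of all genes did. Their median was -0.25. Their mean level was 7.50 to 7.93 in fasted and 7.72 to 8.17 in fed Adeno-Cre arrays, which overlap. Of 15 T and NK cell markers 0 passed and 5 had an unadjusted p under 0.05 (median -0.10), beside the same 16.0% of all genes. Their mean levels, 6.09 to 6.21 in fasted and 6.23 to 6.35 in fed arrays, do not overlap. Of these 15 markers, 9 averaged under 6.26, the lowest array median. The median change was -0.15 for 8 B cell markers and 0.14 for 11 neutrophil markers. What part these cells have in the fall was not tested.

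**Figure D1:**
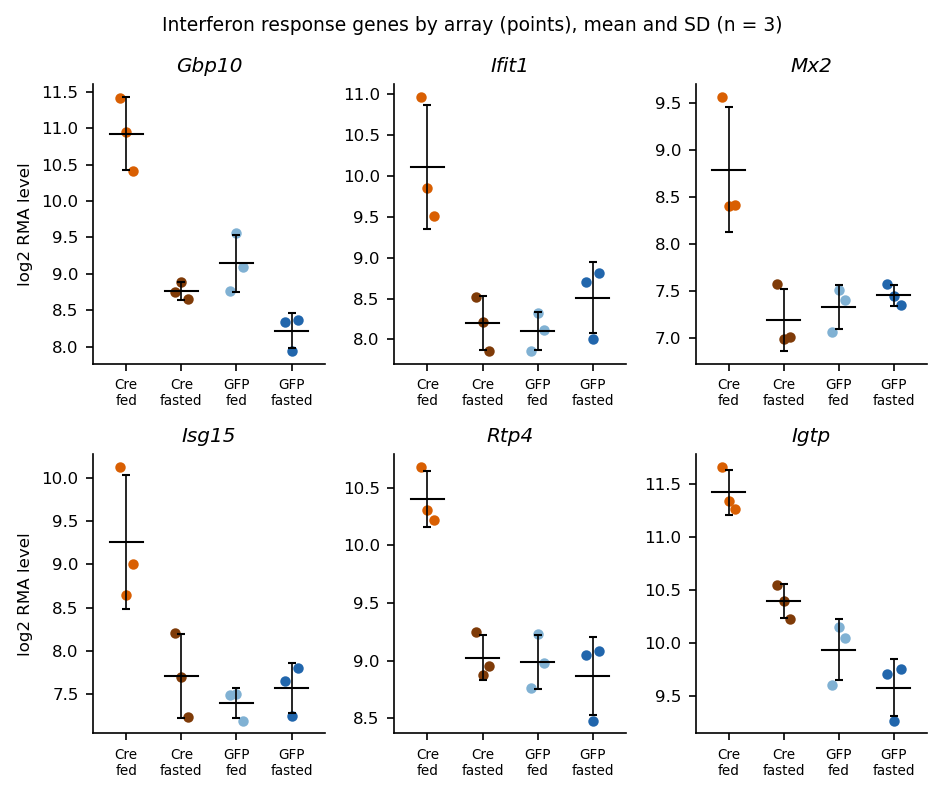
Log2 levels of 6 interferon response genes in the 4 groups, with 1 point per array and the mean and SD of 3 arrays. In Adeno-Cre livers each fed array lies above each fasted array, while the Adeno-GFP arrays of the diets overlap for all but Gbp10.

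Fat oxidation rose. Of 25 measured genes of fatty acid uptake, the carnitine shuttle and mitochondrial beta-oxidation, 12 rose and 0 fell, beside 1.50% of all genes that rose. The median change was 0.33, and 24 of 25 were positive. These steps carry fatty acids into mitochondria and cut them into acetyl-CoA. Slc25a20, the carnitine carrier of the inner membrane, read 10.82, 11.04 and 10.71 in fasted and 10.37, 10.34 and 10.26 in fed arrays, a change of 0.53 (SE 0.09, adjusted p = 0.0111). Its groups do not overlap. Slc22a5, the plasma membrane carnitine transporter, changed most, with 8.94, 8.71 and 8.36 against 8.07, 8.04 and 7.74 (change 0.72, SE 0.16, adjusted p = 0.0323). Cpt1a, the gate enzyme of the shuttle, rose by 0.41 and Cpt2 by 0.40. Cd36, a fatty acid transporter, rose by 0.52. Among enzymes of the oxidation spiral, Hadhb rose by 0.51, Hadha by 0.36, Acadm by 0.35, Acadvl by 0.33 and Acadl by 0.32. These are changes of 1.25-fold to 1.65-fold, small against those of other groups, and the counts rest on all arrays. The members that rose numbered 1 without fasted replicates 1 or 2, 3 without fed replicate 1 and 2 without fed replicates 2 or 3. In a limma fit of the 6 Adeno-Cre arrays alone 0 rose, and 19 were higher at an unadjusted p under 0.05, where 1686 of all 22180 genes were. Of the 6 named by the smallest p, Slc25a20 kept its call without each array in turn. Without 1 of the Adeno-Cre arrays the adjusted p rose to at most 0.0614 for Cpt1a (without fasted replicates 1 or 2 or fed replicate 2), 0.0994 for Cd36 (fasted 1 or 2, fed 1 or 3), and 0.104 for Acadm, 0.102 for Acadvl and 0.0918 for Hadha (fasted 1 or 2, or any fed array).

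Peroxisomes and the endoplasmic reticulum hold further routes of fatty acid oxidation, and both are classical PPARA targets. Cyp4a14, a fatty acid omega-hydroxylase, had the largest rise of all named genes, from 10.90, 10.79 and 10.74 in fed to 12.98, 12.97 and 12.69 in fasted arrays (change 2.07, SE 0.15, adjusted p = 5.54e-05), or 4.20-fold. All fasted arrays lie far above the fed ones. Its relative Cyp4a31 rose by 1.40 (adjusted p = 0.00742), while the other 4 measured Cyp4a genes had changes of -0.35 to 0.04 and did not pass. Ehhadh, the peroxisomal bifunctional enzyme, read 12.03, 12.18 and 11.82 against 10.82, 10.81 and 10.83 (change 1.19, SE 0.19, adjusted p = 0.0069). The fed arrays agree closely and lie below every fasted one. Of 22 genes of peroxisomes and acyl-CoA thioesterases 5 rose and 1 fell (median 0.35), beside 1.50% and 1.17% of all genes. Ech1 rose by 0.61 and Acot2 by 0.72, and the one that fell was Nudt7, a hydrolase of coenzyme A (-1.18, adjusted p = 0.00211). Acot1 rose by 0.80 and Decr2 by 0.40, with calls lost without fasted replicates 1 or 2 or fed replicates 1 or 3, for Acot1 also fed replicate 2 (adjusted p up to 0.0909 and 0.0608). The members that rose numbered 3 without fasted replicates 1 or 2 or fed replicates 1 or 3, and 8 without fasted replicate 3.

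Ketone body genes did not rise as a group. Of 8 measured, 0 rose and 2 fell, the cytosolic Bdh2 (-0.69, adjusted p = 0.00311) and Aacs (-0.60, adjusted p = 0.0286), which uses ketone bodies for lipid synthesis. Aacs missed the threshold without fasted replicates 1 or 2 or fed replicates 1 or 3 (adjusted p up to 0.106). At lipid droplets, the coat protein gene Plin2 rose by 0.38, the lipase gene Pnpla2 by 0.50 and Cidec, which fuses droplets, by 1.06. Cidec levels were 8.09, 8.16 and 6.96 in fasted and 6.55, 6.62 and 6.86 in fed arrays, so fasted replicate 3 stood just above the fed ones. These 3 calls are fragile. Plin2 missed the threshold without fasted replicates 1 or 2 or any fed Adeno-Cre array, Pnpla2 without fasted replicates 1 or 2 or fed replicates 2 or 3, and Cidec without any 1 of the 11 arrays other than fasted replicate 3 of Adeno-Cre (adjusted p up to 0.116, 0.11 and 0.177). The carboxylesterase genes Ces3b (-1.12) and Ces3a (-0.40) fell. Ces3b missed the threshold without fasted replicate 1 or fed replicates 1 or 3, and Ces3a without any 1 of the 11 arrays other than fasted replicate 2 of Adeno-Cre (adjusted p up to 0.0826 and 0.128). Apoa4, an apolipoprotein secreted with lipid, rose from 10.30, 10.39 and 10.37 to 11.78, 11.64 and 11.23 (change 1.20, SE 0.13, adjusted p = 0.000845). Its groups are far apart, and it passed without each array in turn.

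**Figure D2:**
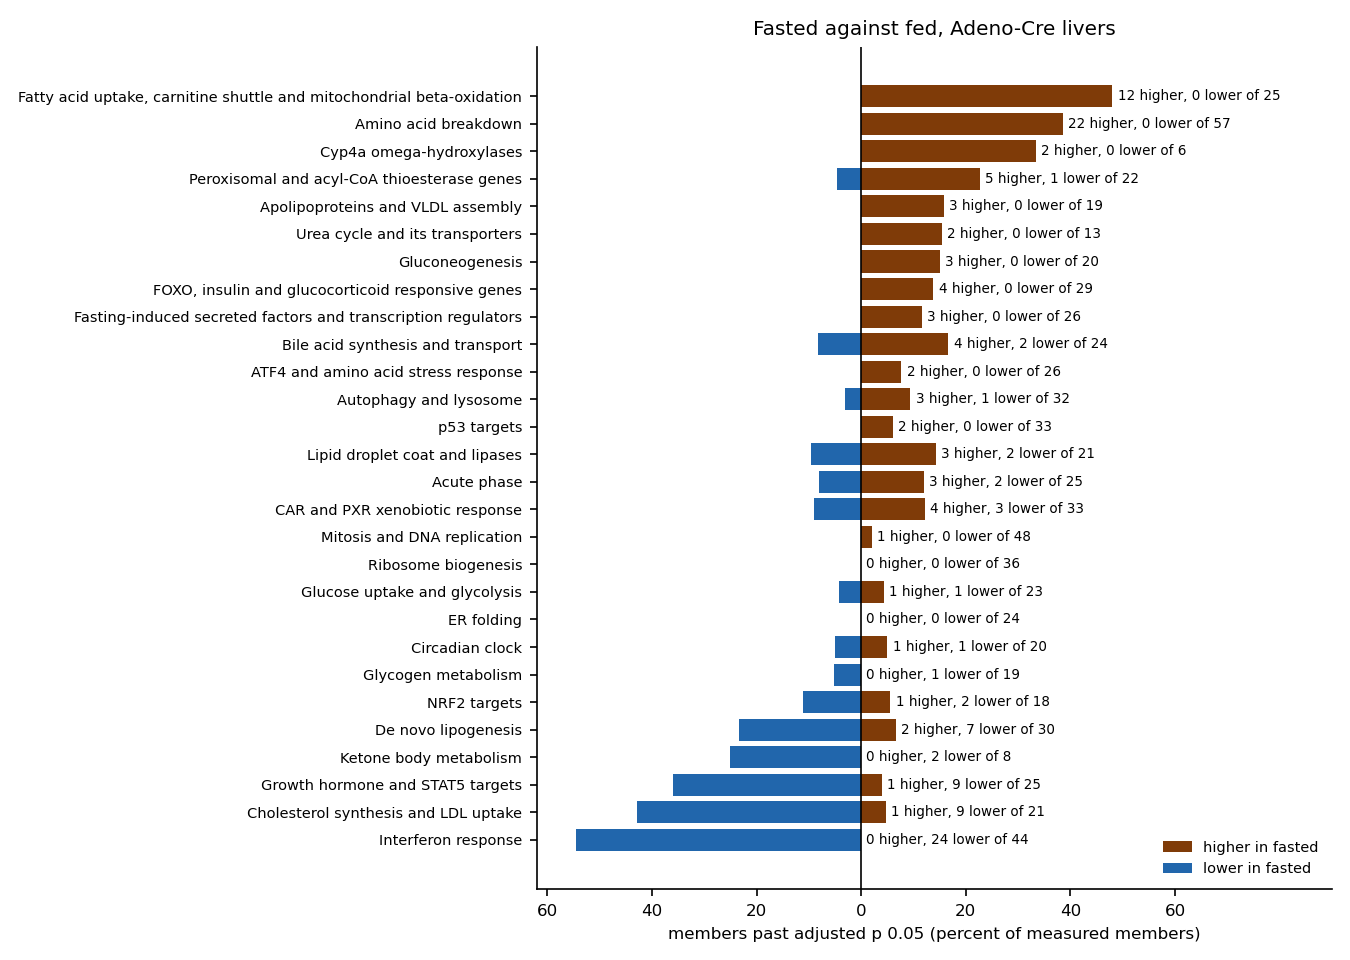
Members of each of 28 process lists that passed adjusted p 0.05 in Adeno-Cre livers, as a percent of measured members, higher in fasted livers to the right and lower to the left. Fat oxidation (12 of 25 higher) and amino acid breakdown (22 of 57 higher) stand at one end and interferon response (24 of 44 lower) at the other.

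Genes listed under amino acid breakdown rose across many pathways. Of 57 measured genes 22 rose and 0 fell, beside 1.50% and 1.17% of all genes. A positive change was seen in 51, and the median was 0.26. Of the 57, 35 had fasted arrays that lie wholly above the fed ones, beside 11.3% of all genes. Ahcy, which splits S-adenosylhomocysteine in methionine breakdown, read 10.78, 10.57 and 10.27 in fasted and 9.70, 9.67 and 9.41 in fed arrays (change 0.95, SE 0.13, adjusted p = 0.00404). Its groups do not overlap. A second probe set of Ahcy, with the lower mean, changed by 0.30 (adjusted p = 0.261 in a fit of all probe sets). Gldc, the decarboxylase of the glycine cleavage system, read 10.03, 10.13 and 10.20 against 9.14, 9.46 and 9.17 (change 0.86, SE 0.13, adjusted p = 0.00589). Oat, ornithine aminotransferase, read 11.91, 11.62 and 11.81 against 10.93, 11.03 and 10.96 (change 0.81, SE 0.11, adjusted p = 0.00333). In both genes the lowest fasted array lies well above the highest fed one. Cth, of cysteine synthesis and breakdown, rose by 0.82, Bhmt2, a methyltransferase that makes methionine, by 0.64, and Ftcd, of histidine breakdown, by 0.54.

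Transaminases move amino groups between amino acids and the keto acids that feed glucose synthesis. Gpt, the cytosolic alanine aminotransferase, read 9.48, 9.40 and 9.27 in fasted and 8.82, 8.70 and 8.48 in fed arrays (change 0.72, SE 0.10, adjusted p = 0.00489). The mitochondrial Gpt2 read 10.84, 10.80 and 10.89 against 10.32, 10.36 and 10.01 (change 0.62, SE 0.11, adjusted p = 0.0156). Got1, the cytosolic aspartate aminotransferase, read 12.40, 12.08 and 12.32 against 11.57, 11.46 and 10.99 (change 0.93, SE 0.18, adjusted p = 0.0216). All 3 separate the diets, and fed replicate 3 is the lowest array in each. Agxt, of glyoxylate and alanine metabolism, rose by 0.79 and Hal, the first enzyme of histidine breakdown, by 0.93. Other genes that rose were Prodh (0.58), Bcat2 (0.52), Gnmt (0.50), Aass (0.49), Bckdk (0.49), Dmgdh (0.48), Amdhd1 (0.48), Afmid (0.44), Hpd (0.42), Mat1a (0.38) and Hgd (0.33). Bckdk encodes a kinase that holds back branched-chain breakdown, so the members that rose include a gene that acts against breakdown. Tat, tyrosine aminotransferase, read 12.30, 11.99 and 12.30 against 11.95, 12.22 and 11.03, which overlap (change 0.46, SE 0.23, adjusted p = 0.361). Glud1 (-0.02), Bhmt (0.00) and Tdo2 (0.12) also did not pass. The members that rose numbered 8 without fasted replicate 1 and 10 without fed replicate 3, and 1 fell without fasted replicate 3. Got1 and Gpt2 missed the threshold without either of those 2 arrays (adjusted p up to 0.0863 and 0.0594), and Hal without fasted replicate 1 (0.051). Markers of periportal hepatocytes, the zone where much of this breakdown takes place, moved with them in part. Of 13, 1 rose (Hal) and 1 fell (Ctsc, -0.39), 8 had an unadjusted p under 0.05, where 16.0% of all genes did, and the median was 0.21. Their mean level was 10.99 to 11.09 in fasted and 10.66 to 10.92 in fed arrays, which do not overlap. Ctsc missed the threshold without any 1 of 10 arrays, the exceptions being fasted replicate 3 and fed replicate 2 of Adeno-Cre. The part of zonal markers in the amino acid and urea results was not tested.

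**Figure D3:**
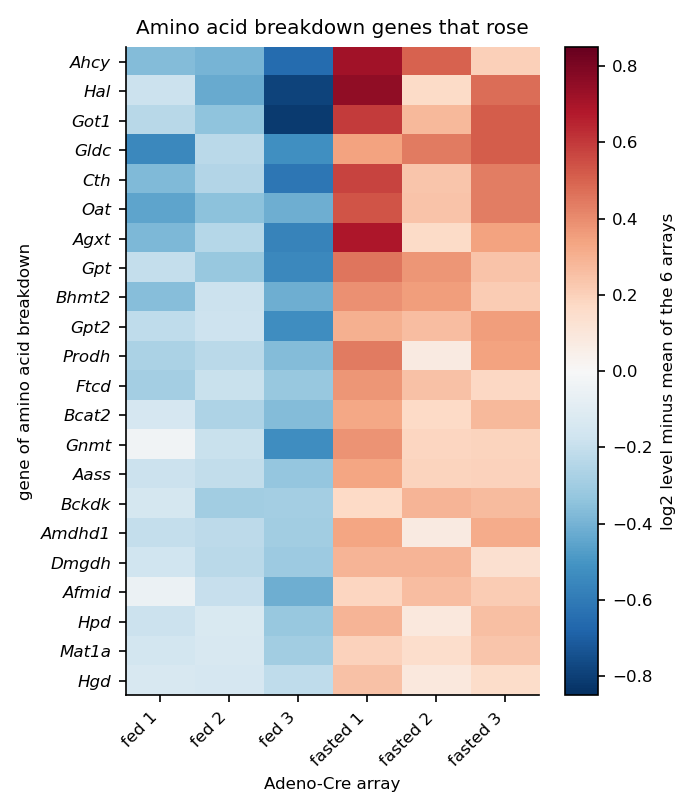
Levels of the 22 genes of amino acid breakdown that rose, each centred on its mean over the 6 Adeno-Cre arrays (columns), from blue (lower) to red (higher) on a log2 scale. Fed replicate 3 is the lowest array and fasted replicate 1 the highest for most of these genes.

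In the urea cycle, which disposes of the nitrogen, 2 of 13 genes rose and 0 fell (median 0.16). Asl, argininosuccinate lyase, read 11.65, 11.53 and 11.63 in fasted and 10.94, 11.00 and 10.36 in fed arrays (change 0.84, SE 0.15, adjusted p = 0.0151). The groups separate, with fed replicate 3 again the lowest. Slc25a15, the mitochondrial ornithine carrier, rose by 0.58. Asl missed the threshold without fasted replicate 1 (adjusted p = 0.0609) and Slc25a15 without any 1 Adeno-Cre array (up to 0.0936). Cps1, which commits ammonia to the cycle, had levels of 13.00, 12.99 and 13.05 against 12.89, 12.89 and 12.77 (change 0.16, SE 0.07, adjusted p = 0.253). Its arrays do not overlap, but the change is small and did not pass.

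Gluconeogenesis gave fewer calls. Of 20 measured genes 3 rose and 0 fell (median 0.24), and those 3 are the transaminase genes Got1, Gpt and Gpt2. Pck1, phosphoenolpyruvate carboxykinase, read 12.49, 12.36 and 12.22 in fasted and 12.31, 12.17 and 11.54 in fed arrays (change 0.35, SE 0.17, adjusted p = 0.328). G6pc, the catalytic subunit of glucose-6-phosphatase, read 11.51, 11.42 and 11.09 against 11.82, 11.98 and 10.53 (change -0.10, SE 0.29, adjusted p = 0.904). In Pck1 fed replicate 1 lies among the fasted arrays and the other fed arrays lie below them. In G6pc fed replicates 1 and 2 lie above all fasted arrays and fed replicate 3 below them. Igfbp1, a secreted protein that insulin represses, spread most, with 9.39, 10.69 and 7.35 in fed and 10.39, 9.40 and 10.36 in fasted arrays (change 0.91, SE 0.61, adjusted p = 0.522). Its fed arrays span over 3 log2 units. The members that rose numbered 1 without fasted replicate 1 or fed replicate 3, and 5 without fasted replicate 3.

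Regulators of fasting rose in part. Of 26 secreted factors and transcription regulators 3 rose and 0 fell (median 0.10). Pdk4, a kinase that shuts off pyruvate oxidation, read 9.17, 8.88 and 8.31 in fasted and 7.54, 7.85 and 7.55 in fed arrays (change 1.14, SE 0.24, adjusted p = 0.028). Ppargc1a, the coactivator PGC-1 alpha, read 10.11, 9.61 and 9.91 against 9.28, 9.38 and 8.64 (change 0.78, SE 0.17, adjusted p = 0.0329). Neither gene's groups overlap. Igfbp2 rose by 0.74. The hormone gene Fgf21 (0.11, adjusted p = 0.692) and Angptl4 (0.45, adjusted p = 0.407), an inhibitor of lipoprotein lipase, did not pass. Among 29 genes responsive to FOXO factors, insulin and glucocorticoid, 4 rose and 0 fell. They were the metallothionein Mt1 (0.96), Sgk2 (0.92), the glucocorticoid receptor chaperone Fkbp5 (0.70) and Klf9 (0.53). Each of these 7 calls was lost without 1 or more single arrays, Pdk4 without fasted replicates 1 or 2 or any fed Adeno-Cre array (adjusted p up to 0.115), Ppargc1a without fasted replicates 1 or 3 or fed replicates 1 or 3 (0.136), Mt1 without fed replicate 3 (0.0563), Sgk2 without fasted or fed replicates 1 or 2 (0.101), and Klf9 without any 1 Adeno-Cre array (0.139). Fkbp5 was lost without 7 arrays, all Adeno-Cre arrays except fed replicate 1 plus Adeno-GFP fasted replicate 2 and fed replicate 3 (0.14), and Igfbp2 without 9, all 6 Adeno-Cre arrays and Adeno-GFP fasted replicate 1 and fed replicates 2 and 3 (0.163).

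Cholesterol synthesis fell. Of 21 measured genes of the pathway and its control 9 fell and 1 rose, beside 1.17% and 1.50% of all genes. The median was -0.40, and 5 fell by at least 2-fold (0.221% of all genes). The pathway is driven by SREBP2, a factor that INSIG proteins hold back. Fdps, farnesyl diphosphate synthase, read 8.72, 8.80 and 9.37 in fasted and 10.96, 10.76 and 10.78 in fed arrays (change -1.87, SE 0.15, adjusted p = 8e-05), or 3.66-fold. Nsdhl, of the late pathway, read 9.53, 9.58 and 9.74 against 11.04, 11.02 and 11.03 (change -1.42, SE 0.08, adjusted p = 1.89e-05). Sqle, squalene epoxidase, read 8.39, 7.98 and 8.88 against 9.78, 10.01 and 9.85 (change -1.46, SE 0.19, adjusted p = 0.00286). All 3 separate the diets, and fasted replicate 3 is the highest fasted array in each. Cyp51 fell by 1.29, Msmo1 by 1.01, the sterol carrier gene Stard4 by 0.79, Insig1 by 0.72, Hmgcs1 by 0.68 and Lss by 0.48. The gene that rose was Insig2 (change 1.05, SE 0.16, adjusted p = 0.00595), with 9.92, 9.83 and 9.49 in fasted and 8.51, 8.93 and 8.64 in fed arrays. Fdps, Nsdhl, Sqle, Cyp51, Msmo1 and Insig2 passed without each array in turn. TCACNCCAC, a sterol element, was searched on either strand and found in 1.22% of the 27025 genes with a promoter. Of 17 members of this list with a promoter in the table, only Hmgcs1, HMG-CoA synthase of the cytosol, held it (chr13:119690101-119690350, plus strand, GRCm38.p6). Ehhadh (1 of 18 peroxisomal members), Gnmt (1 of 50 amino acid members) and Mlxipl (1 of 26 lipogenesis members) held it too. The Hmgcs1 promoter is printed with its match in capitals.
Hmgcs1: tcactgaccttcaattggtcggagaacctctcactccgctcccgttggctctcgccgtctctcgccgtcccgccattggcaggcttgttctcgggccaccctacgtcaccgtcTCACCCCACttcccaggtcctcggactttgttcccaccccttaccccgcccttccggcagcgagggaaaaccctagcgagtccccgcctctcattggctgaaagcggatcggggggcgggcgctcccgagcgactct

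Some genes of fatty acid synthesis also fell. Of 30 lipogenesis genes 7 fell and 2 rose (median -0.21), beside 1.17% and 1.50% of all genes. Me1, malic enzyme, read 10.51, 10.83 and 10.53 in fasted and 11.40, 11.29 and 11.42 in fed arrays (change -0.75, SE 0.10, adjusted p = 0.00333). Scd1, stearoyl-CoA desaturase, read 11.80, 11.65 and 11.43 against 12.51, 12.30 and 12.46 (change -0.80, SE 0.12, adjusted p = 0.00604). Fasn, fatty acid synthase, read 8.14, 8.24 and 8.01 against 8.96, 8.93 and 8.73 (change -0.74, SE 0.15, adjusted p = 0.0262). In each the fasted arrays lie below the fed ones. Elovl6, a fatty acid elongase, fell by 0.95, Thrsp by 0.81, Pgd by 0.61 and Rdh11 by 0.46, while Dgat1, of triglyceride synthesis, rose by 0.55 and Agpat3 by 0.35. Pklr, pyruvate kinase of glycolysis, fell by 0.78 (adjusted p = 0.00389). Srebf1, which encodes the factor SREBP1, read 7.28, 7.14 and 7.24 against 7.46, 7.46 and 7.45 (change -0.24, SE 0.10, adjusted p = 0.258). Acly, ATP citrate lyase, changed by -0.38 (adjusted p = 0.172). In Adeno-GFP livers 16 of the 30 fell and 2 rose (median -0.41), beside 1.87% and 1.20% of all genes. There Srebf1 was at -1.01 (adjusted p = 0.000335), Fasn at -1.65 and Acly at -1.03. The interaction passed for 0 of 30 genes and reached an unadjusted p under 0.05 in 7 of 30 (23.3%, beside 7.56% of all genes), with Srebf1 at 0.77 (adjusted p = 0.294). The Adeno-Cre members that fell numbered 3 without fasted replicates 1 or 2 or fed replicate 1, and 4 without fasted replicate 3 or fed replicate 2. Fasn lost its call without any 1 of those 5 arrays (adjusted p up to 0.0971), and Rdh11 without the first 3 of them (up to 0.0636).

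**Figure D4:**
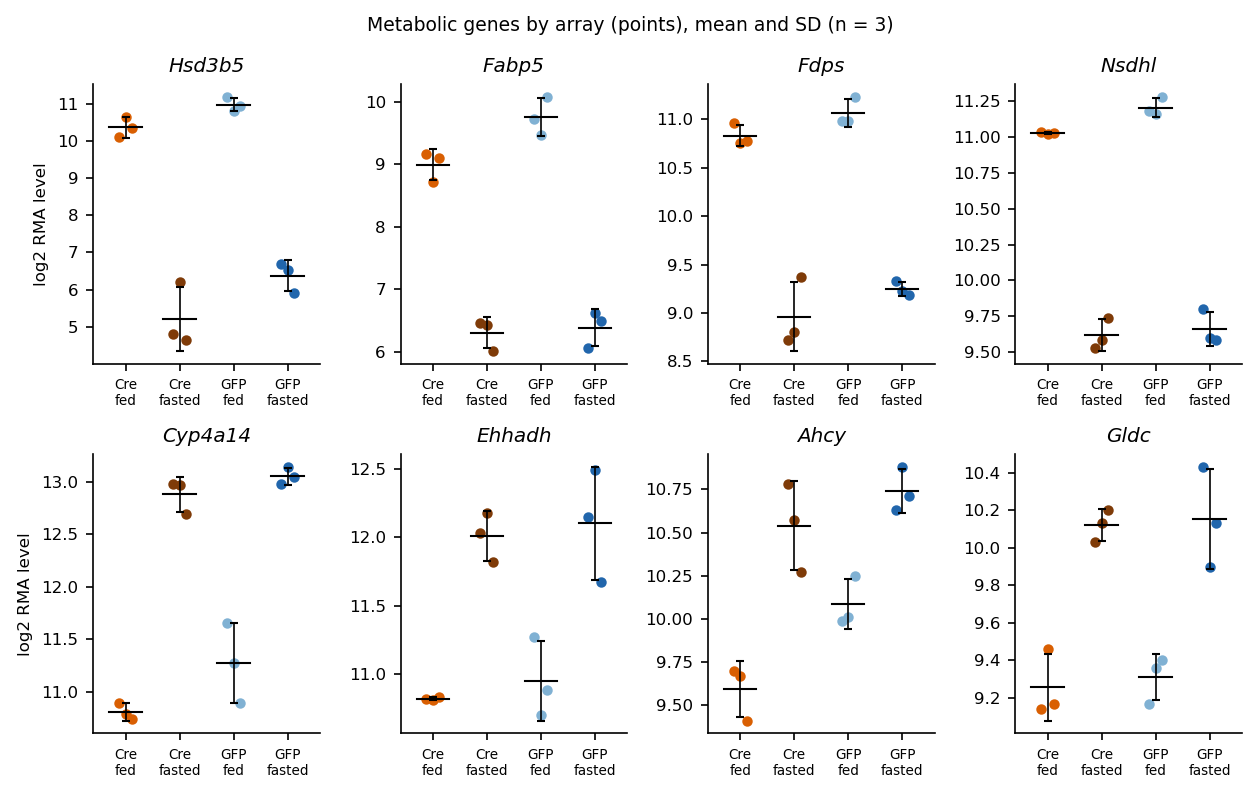
Log2 levels of 8 metabolic genes in the 4 groups, with 1 point per array and the mean and SD of 3 arrays. Hsd3b5, Fabp5, Fdps and Nsdhl are lower and Cyp4a14, Ehhadh, Ahcy and Gldc higher in fasted Adeno-Cre arrays, with no overlap between diets.

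Genes that growth hormone controls through STAT5, many of them higher in male than in female liver, fell in part. Of 25 measured 9 fell and 1 rose (median -0.54), beside 1.17% and 1.50% of all genes. By at least 2-fold 5 fell, beside 0.221% of all genes. Hsd3b5, a male-biased steroid reductase, read 4.81, 6.21 and 4.64 in fasted and 10.10, 10.64 and 10.33 in fed arrays (change -5.14, SE 0.34, adjusted p = 3.17e-05), or 35.2-fold. The fasted level lies under the array medians and is not shown to be above background, so the size of this change is uncertain. Keg1 read 10.03, 10.52 and 9.64 against 11.86, 11.80 and 11.80 (change -1.75, SE 0.16, adjusted p = 0.000272). Egfr, the receptor of epidermal growth factor, read 10.98, 11.11 and 10.64 against 11.87, 12.06 and 12.06 (change -1.08, SE 0.13, adjusted p = 0.0024). The fed arrays of these genes agree closely and lie above every fasted one. Selenbp2 fell by 1.65, Slco1a1, an organic anion transporter, by 0.72, Lifr, a cytokine receptor, by 0.68, and Cyp7b1, a hydroxylase of oxysterols, by 0.83. Cyp7b1 missed the threshold when 1 of 8 arrays was left out, namely the 3 Adeno-Cre fasted arrays, Adeno-Cre fed replicates 2 and 3, Adeno-GFP fasted replicate 3 and Adeno-GFP fed replicates 1 and 3 (adjusted p up to 0.146). Cyp17a1, a steroid hydroxylase, rose by 1.30 (adjusted p = 0.0069). The estrogen sulfotransferase gene Sult1e1 had the highest change of all genes, 2.21, and did not pass (SE 0.65, adjusted p = 0.101). Igf1, the classical target of growth hormone, had a change of 0.00 (SE 0.09, adjusted p = 0.995). With fasted replicate 3 of Adeno-Cre or fasted replicate 1 of Adeno-GFP left out, 2 members rose.

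Other large changes lay outside these groups. Fabp5, a fatty acid binding protein, read 6.46, 6.43 and 6.01 in fasted and 9.16, 8.71 and 9.10 in fed arrays (change -2.69, SE 0.19, adjusted p = 5.07e-05), and its other 3 probe sets gave -1.71 to -2.70. Serpina4-ps1 fell by 3.58 and Ugt2b38, a glucuronosyltransferase, by 3.57, the latter to levels of 2.80 to 3.52 that are not shown to be above background. Ugt2b37 fell by 1.77, also to such levels. Slc16a5, a monocarboxylate transporter, rose from 7.08, 6.43 and 6.65 to 8.35, 8.38 and 7.87 (change 1.48, SE 0.19, adjusted p = 0.00286), and its other probe set gave 1.14. Both genes separate the diets. Slco1a4, a transporter of bile acids and drugs, rose by 1.41, Defb1, a defensin, by 1.39, Prelid2 by 1.31, Krt23, a keratin, by 1.22, Cabcoco1 by 1.20 and Hnf4aos, antisense to Hnf4a, by 1.54. Cyp2b10, the classical target of the xenobiotic receptor CAR, rose by 1.55, Nipal1 by 1.41 and Cyp3a25 by 1.32. Those 3 calls were lost without single arrays, Cyp2b10 without fasted replicate 2 or fed replicates 2 or 3 (adjusted p up to 0.0658), Cyp3a25 without fasted or fed replicate 1, fasted replicate 2 or fed replicate 3 (0.0832), and Nipal1 without 7 arrays, all Adeno-Cre arrays except fed replicate 1 plus Adeno-GFP fasted replicate 1 and fed replicate 3 (0.126).

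Bile acid genes moved both ways, with 4 of 24 higher and 2 lower (median 0.09). Slco1a4 and Cyp39a1 (0.76), an oxysterol hydroxylase, rose with Abcc3 (0.52), an export pump, and Acox2 (0.47), and the 2 that fell were Cyp7b1 and Slco1a1. Cyp7a1, the rate-limiting enzyme of bile acid synthesis, read 10.74, 11.19 and 11.40 in fasted and 11.80, 11.73 and 11.54 in fed arrays (change -0.58, SE 0.20, adjusted p = 0.163). Its arrays do not overlap, yet it did not pass. The members that rose numbered 1 without fasted replicate 1 and 2 without fed replicate 3.

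Few cell cycle and p53 target genes passed the test. Of 48 genes of mitosis and DNA replication 1 rose, the helicase gene Mcm7 (0.41, adjusted p = 0.0432), and 0 fell, with a median of -0.26. Mcm7 missed the threshold when any 1 of 9 arrays was left out; the exceptions were Adeno-Cre fasted replicate 3, Adeno-Cre fed replicate 1 and Adeno-GFP fed replicate 2. Mki67, the proliferation marker Ki-67, read 9.12, 9.48 and 9.68 in fasted and 9.82, 9.80 and 9.98 in fed arrays (change -0.44, SE 0.26, adjusted p = 0.454), and Cdk1 changed by -0.22 (adjusted p = 0.674). Of the 48, 36 had a negative change, and 12 had an unadjusted p under 0.05, beside 16.0% of all genes. In 17 the fasted arrays lay wholly below the fed ones, beside 9.81% of all genes. In the limma fit of the 6 Adeno-Cre arrays alone 1 fell and 0 rose, with 20 lower and 7 higher at an unadjusted p under 0.05. Over all 22180 genes that fit had 105 that fell and 107 that rose, with 1574 lower and 1686 higher at an unadjusted p under 0.05. The mean level over the 48 was 8.13 to 8.45 in fasted and 8.42 to 8.53 in fed arrays. In Adeno-GFP livers 13 of the 48 fell and 0 rose, beside 1.87% and 1.20% of all genes, with a median of -0.70. Mki67 was at -1.37 there (adjusted p = 0.0164). The interaction passed for 0 of 48 and had an unadjusted p under 0.05 in 20 (41.7%, beside 7.56% of all genes). Of 33 p53 targets 2 rose and 0 fell (median -0.08): Dcxr, a carbonyl reductase, by 0.67 (adjusted p = 0.00256) and Ei24 by 0.33. Both also rose in Adeno-GFP livers, by 0.52 and 0.42. Cdkn1a, the cell cycle inhibitor p21, read 7.71, 8.24 and 8.14 in fasted and 7.15, 7.21 and 7.19 in fed arrays (change 0.85, SE 0.33, adjusted p = 0.228). Its fasted arrays are all above its fed ones, but it did not pass. Mdm2 (-0.02) and Ccng1 (-0.03) did not pass either. Ei24 missed the threshold without any 1 of the 10 arrays other than Adeno-GFP fed replicates 1 and 2 (adjusted p up to 0.149).

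Among the other lists, ER folding and ribosome biogenesis had 0 of 24 and 0 of 36 genes past limma's threshold. Each had 5 genes at an unadjusted p under 0.05, where 16.0% of all genes had one. Autophagy and lysosome genes had 3 higher and 1 lower of 32, led by Retreg1 (0.96, adjusted p = 0.00492), a receptor for autophagy of the endoplasmic reticulum, and Ulk2 (-0.64, adjusted p = 0.00353), a kinase that starts autophagy. The 3 became 1 without Adeno-Cre fasted replicates 1 or 2 or fed replicates 1 or 3, while Retreg1 and Ulk2 passed without each array in turn. Acute phase genes had 3 higher and 2 lower of 25, with Lbp, which binds bacterial lipopolysaccharide, at 0.58 (adjusted p = 0.0097). The 3 became 1 without Adeno-Cre fasted replicate 1 or fed replicates 1 or 3, and the 2 became 0 without fasted or fed replicate 1. Of 18 stellate cell markers 3 fell: the collagen genes Col3a1 (-0.76, adjusted p = 0.00595) and Col1a2 (-0.62) and the retinol enzyme gene Lrat (-0.52). The other probe set of Col1a2 gave -0.27. Col1a2 and Lrat missed the threshold without fasted replicates 1 or 2 or fed replicates 2 or 3, Lrat also without fed replicate 1 (adjusted p up to 0.0754 and 0.124). Of 17 pericentral hepatocyte markers Oat rose, and Cyp1a2 (-0.82) and Rgn (-0.73) fell. Of 18 endothelial markers 0 passed limma's test and 0 had an unadjusted p under 0.05. Of 11 neutrophil, 9 cholangiocyte and 8 B cell markers 0 passed and 2 in each had one, beside the same 16.0% of all genes.

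Set beside the same contrast in Adeno-GFP livers, where 682 genes passed (3.07%), 267 higher (1.20%) and 415 lower (1.87%), 256 genes passed in the same direction after both injections. The 682 became 412, 441 and 379 without Adeno-GFP fasted replicates 1, 2 and 3, and 308 and 275 without Adeno-GFP fed replicates 1 and 2. Of the 682, 29 rose (0.131%) and 68 fell (0.307%) by at least 2-fold. The 256 are 43.2% of the Adeno-Cre calls and 37.5% of the Adeno-GFP calls. Of the 592 Adeno-Cre calls 552 (93.2%) had the same sign in Adeno-GFP livers, and this share was not counted over all genes. Those that rose had a median of 0.52 after Adeno-Cre and 0.37 after Adeno-GFP, and those that fell -0.65 and -0.40. In 187 of the 592 the interaction had an unadjusted p under 0.05, where 7.56% of all genes did. These genes were chosen by their Adeno-Cre change, which is part of the interaction. Of the calls that fell, 112 of 259 fell after both. The changes of all 22180 genes correlated between injections at 0.512 (Pearson) and 0.345 (Spearman). The 2 contrasts use different mice but arrays normalised together, and genes are not independent replicates. Adeno-Cre and Adeno-GFP values of some members stand side by side. Fdps changed by -1.87 and -1.82, Nsdhl by -1.42 and -1.54, Ehhadh by 1.19 and 1.16, Gldc by 0.86 and 0.84, and Apoa4 by 1.20 and 1.14. Others lay further apart, such as Rdh11 at -0.46 and -1.14 and Ifit1 at -1.91 and 0.41, though their interactions did not pass. Of 57 amino acid genes 13 rose and 1 fell after Adeno-GFP (median 0.22), and the interaction passed for 0 and had an unadjusted p under 0.05 in 1 (1.75%).

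The interaction passed for 1 gene of 22180 (0.00451%), and 1676 (7.56%) had an unadjusted p under 0.05. The gene was Slc44a3, a member of the choline transporter-like family. It read 8.27, 8.40 and 8.49 in fasted and 7.97, 7.96 and 7.84 in fed Adeno-Cre arrays, and 7.51, 7.41 and 7.57 against 8.16, 8.18 and 7.95 in Adeno-GFP arrays. It rose by 0.47 (SE 0.09, adjusted p = 0.0192) after Adeno-Cre and fell by 0.60 (adjusted p = 0.00452) after Adeno-GFP, a difference of 1.07 (SE 0.13, adjusted p = 0.0481). Its groups do not overlap after either injection. The count was 0 without any 1 of 10 arrays. It was 1 without Adeno-GFP fasted replicate 3, of a gene with a negative interaction, and 1 without Adeno-GFP fed replicate 3, of a gene with a positive one. The rise of Slc44a3 after Adeno-Cre missed the threshold without fasted replicate 2 or fed replicates 1 or 3 (adjusted p up to 0.0753).

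**Figure D5:**
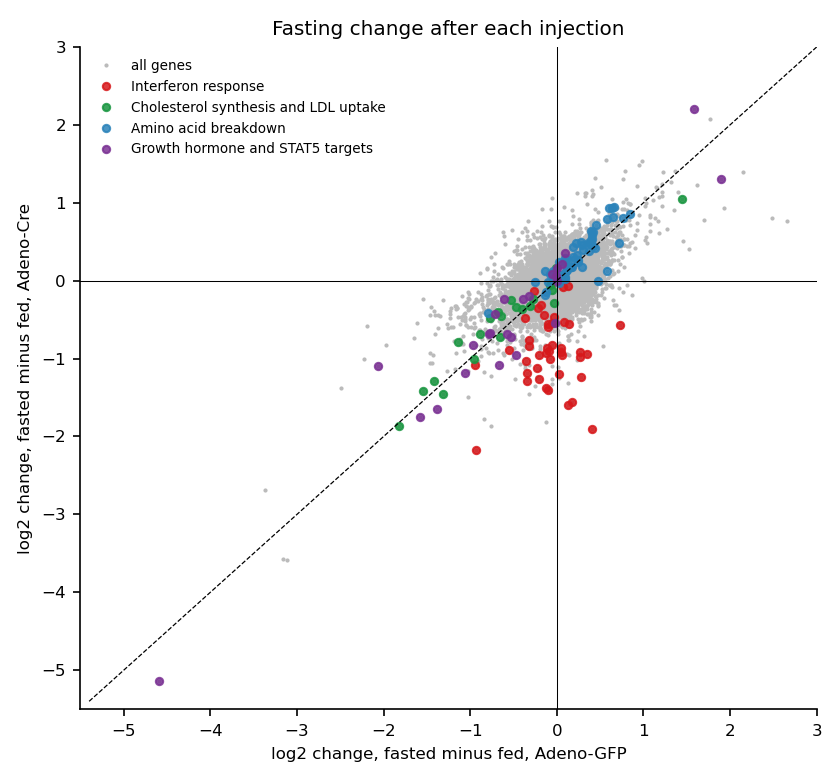
Fasting change (log2) of 22180 genes in Adeno-Cre livers (vertical axis) against that in Adeno-GFP livers (horizontal axis), with 4 lists coloured and a dashed line of equal change. Most members of the interferon list lie below the line, with a median of -0.90 on the vertical and -0.10 on the horizontal axis, and the other 3 lists lie along it.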

How the data were processed

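Liver RNA of 12 mice was measured on Affymetrix arrays. The authors deposited log2 values after robust multi-array averaging (RMA), per the submitters' processing notes, with software and build not given in the sources used here. Averaging of this kind draws arrays towards one distribution, so changes are relative to the other genes. Of 41345 probe sets, 23521 named exactly 1 gene, 1814 several and 16010 none. A gene was read from its probe set with the highest mean, which left 22180 genes. limma 3.58.1 in R 4.3.3 fitted 1 mean per group over all 12 arrays, with Benjamini-Hochberg adjustment over all genes and a threshold of 0.05. Tested on simulated data with 50 genes changed at each log2 size, it recovered 58% at 0.5, 88% at 1 and 100% at 2. No batch is given in the labels, and p-values measure only the spread between these arrays.

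The members and the 39 lists were chosen with earlier results of these data known. Named genes were the 15 largest rises and falls without overlap, up to 6 members of a list with the smallest p, the top interaction and a set of known fasting, lipid and p53 genes. Other members were named after their values were seen. Some genes are not reported here. The interferon element first planned was that of an ETS and IRF pair, held by 4 of 30 members and 2.68% of all genes with a promoter. The core replaced it. Alternatives left out dim genes or single arrays, repeated quantile normalisation, blocked on replicate number, fitted only the groups compared, changed the variance prior, averaged or kept all probe sets, and asked for 2-fold.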

Additional observations from a re-analysis of the deposited data

Results flagged for a closer look

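Slc44a3, a member of the choline transporter-like family, was the gene whose fasting change differed between injections by limma's interaction test. The difference was 1.07 (log2), Adeno-Cre minus Adeno-GFP, with an adjusted p of 0.0481. All 3 fasted arrays lay above all 3 fed arrays after Adeno-Cre and below them after Adeno-GFP. Its cause was not tested.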

How the results depend on the processing

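The genes past the threshold in Adeno-Cre livers (592) became 1049 with genes under the median level left out, 212 with only the groups compared, 935 with a trended and robust variance prior and 80 at 2-fold or more, and 207 to 713 with 1 array left out. Those in Adeno-GFP livers (682) became 1160, 394, 1038 and 97 under the same settings, and 275 to 720. The interaction (1) became 0 with quantile normalisation repeated, with the replicate block and with all probe sets tested, and 0 to 1 with 1 array left out. Members that rose in fat oxidation (12) became 0 with only the groups compared and 0 at 2-fold, and 1 to 13 with 1 array left out. For peroxisomal genes (5) the counts were 10 without dim genes, 10 with the robust prior, 1 at 2-fold, and 3 to 8. Members that fell in lipogenesis (7) became 11 without dim genes, 4 with only the groups compared, 11 with the robust prior and 0 at 2-fold, and 3 to 8. In cholesterol synthesis (9) they became 14, 14 with the robust prior and 5 at 2-fold, and 6 to 9. Amino acid members that rose (22) became 10 with only the groups compared and 0 at 2-fold, and 8 to 22. Growth hormone targets that fell (9) became 5 at 2-fold, and 7 to 11. Interferon members that fell (24) became 11 with only the groups compared and 14 at 2-fold, and 9 to 25. The cause was not tested, except that fitting fewer arrays leaves fewer degrees of freedom. Counts and list medians were compared by size only, so a reversal was not looked for in them. None of the 133 genes for which alternatives were run changed sign while past the threshold in the main or the alternative fit. The families and single genes under other observations were not put through these alternatives unless they are among those.

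Replicate numbers are shared between groups, but do not pair the mice: deviations of same-numbered Adeno-Cre fasted and fed arrays correlated at 0.066, -0.012 and 0.014. With the replicate block the Adeno-Cre calls were 552, the Adeno-GFP calls 587 and the interferon members that fell 23. With 3 arrays a group and signals whose background is not given, small changes and dim genes are the least certain.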

Other observations

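Some gene families outside the lists, chosen after their values were seen, also moved. Beside their counts, 1.17% of all genes fell and 1.50% rose in Adeno-Cre livers. In Adeno-GFP livers these shares were 1.87% and 1.20%. Of 10 genes of the terminal complement complex and C4, 6 fell and 0 rose in Adeno-Cre livers (median -0.37), and 3 fell in Adeno-GFP livers (median -0.22). C8a, a chain of the membrane attack complex, fell by 0.89, C6 by 0.69, C9 by 0.47 and C8b by 0.39. C4a fell by 0.93, and its probe set can share RNA with C4b. Of 7 Schlafen genes, 3 fell (median -0.70), against 0 in Adeno-GFP livers (median 0.10). Of 7 Ugt2b genes, which encode glucuronosyltransferases, 4 fell (median -0.52), and 3 fell in Adeno-GFP livers (median -0.57). Of 7 Akr1c genes, which encode ketosteroid reductases, 3 fell (median -0.35), and 3 fell in Adeno-GFP livers (median -0.54). The 98 cytochrome P450 genes went both ways, with 11 higher and 7 lower. Other families had few calls in Adeno-Cre livers. Of 71 mitochondrial ribosomal protein genes 1 rose, of 33 genes of NADH dehydrogenase subunits 1 rose, and of 39 proteasome subunit genes 1 fell. Of 64 tripartite motif genes 2 rose and 4 fell.

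Single genes chosen after their values were seen include Retsat, a retinol saturase, which rose by 1.09 in Adeno-Cre and 1.22 in Adeno-GFP livers. Map2k6, a kinase upstream of p38, rose by 1.13 in Adeno-Cre livers and changed by 0.23 in Adeno-GFP livers. The interaction passed for Slc44a3 alone, so the changes of Map2k6 and of the Schlafen genes are not shown to differ between injections.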
